A study of Mus musculus with 20 samples.

Results

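The regions described here were 3725 of the 42403 GATA6 binding regions of the deposited table, namely those that the study placed in its early GATA6 cluster, classed as bound ectopically by pluripotency transcription factors (PTF) and classed as bound by SOX17. They made up 31.4% of the 11875 early regions, 52.9% of the 7038 regions with ectopic PTF binding and 19.7% of the 18861 regions with SOX17. Each of the 3 criteria came from ChIP-seq: k-means clusters of the GATA6 signal over time, and peak calls for SOX17 and for OCT4, SOX2 and ESRRB. Ectopic means that a PTF was called at the region during induction although it was not called there in undifferentiated ES cells. None of these values is used as a result below, and chromatin accessibility, the motif content and the genomic position of the regions entered none of the criteria directly. They are not independent of the criteria, since the ectopic class leaves out regions with PTF called in ES cells. The paper reports such regions as highly accessible in ES cells, and OCT4/SOX2 motifs as enriched in its transient GATA6 cluster, above all where PTF were bound.

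Accessibility was measured by ATAC-seq, in which the transposase Tn5 inserts adapters into exposed DNA, in 20 samples of 7 groups. KH2 mouse ES cells (C57BL/6 x 129/Sv) with a doxycycline-inducible Gata6 cassette gave 17 samples. The d0 group (3 samples) received no treatment, and the groups titled 8 h, 16 h, day 1, day 2 (3 samples each) and day 4 (2 samples) received 1 µg/mL doxycycline. These cells were grown with LIF on inactivated fibroblast feeders, which were adsorbed before the assay. The X10 line of XEN cells (3 samples, CD1, wild type) was grown without LIF and received no treatment, so that XEN and KH2 cells differ in strain, medium and origin and these cannot be told apart. The transgene is a tagged Gata6 driven by doxycycline in clones picked by the authors, and the labels do not say which clone gave which library. The hours under treatment in the labels (16, 24, 48 and 72) exceed those in the titles of the 8 h, 16 h, day 1 and day 2 groups, and the titles are used here. RNA was not measured in this series, so the identity of the cells was not checked against transcripts.

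GATA6 is a zinc finger factor that specifies primitive endoderm (PrE), the extraembryonic layer of the blastocyst that XEN cells resemble. It is counted among the pioneer factors, which can bind DNA wrapped in nucleosomes. SOX17 is an HMG box factor that acts after GATA6 in the same lineage, while OCT4 and SOX2 maintain pluripotency and ESRRB supports them. OCT4 and SOX2 bind side by side at a composite motif with a short gap between the SOX site and the OCT site, and SOX17 is known to pair with OCT4 at a compressed form of this motif that lacks the gap.

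Sequences are shown first because the criteria did not use them directly. The windows below are 121 bases of the plus strand of mm10 centred on the GATA6 summit, read from the RefSeq copy of GRCm38.p6. They belong to the 6 regions of highest day 2 accessibility among the regions of largest change and those near listed endoderm genes whose best GATA6 or SOX17 match, as deposited by the authors, lies inside the window. Regions bear the name of the nearest protein-coding start at any distance. Capitals mark the match. It is a SOX17 match in the first, the third and the fifth window (in the fifth on the minus strand), a GATA6 match in the second, and a GATA6 match followed by a SOX17 match in the fourth and the sixth (the latter SOX17 match on the minus strand).
Srgn region, chr10:62528543-62528663: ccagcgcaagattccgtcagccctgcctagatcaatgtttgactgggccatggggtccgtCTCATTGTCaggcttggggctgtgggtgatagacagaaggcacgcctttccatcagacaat
Ctsl region, chr13:64375286-64375406: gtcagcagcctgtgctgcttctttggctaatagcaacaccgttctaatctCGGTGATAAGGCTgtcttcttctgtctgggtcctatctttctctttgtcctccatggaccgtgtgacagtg
Clnk region, chr5:39103631-39103751: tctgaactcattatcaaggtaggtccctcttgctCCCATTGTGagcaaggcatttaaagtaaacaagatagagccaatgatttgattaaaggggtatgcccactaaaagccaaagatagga
Foxa2 region, chr2:147968737-147968857: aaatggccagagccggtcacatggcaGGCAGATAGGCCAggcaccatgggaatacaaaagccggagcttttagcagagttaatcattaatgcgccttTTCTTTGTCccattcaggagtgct
Parp11 region, chr6:127364841-127364961: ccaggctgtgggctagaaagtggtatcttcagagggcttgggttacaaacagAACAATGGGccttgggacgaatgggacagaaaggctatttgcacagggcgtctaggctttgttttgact
Cubn region, chr2:13496223-13496343: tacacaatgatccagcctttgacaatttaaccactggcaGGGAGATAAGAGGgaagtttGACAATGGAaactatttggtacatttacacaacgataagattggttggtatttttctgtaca

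The compressed composite, in which TTGT is followed at once by ATGNAAA, searched on both strands in the 300 bases around the summit, was held by 16 of the 3725 regions, or 0.430% (exact 95% binomial interval 0.246% to 0.697%). It was held by 0.215% of all regions (0.173% to 0.263%). The 16 regions had a median log2 change of accessibility of 1.44 from d0 to day 2. It was 1.93 in the 3709 without the motif. 5 of the 16 sites are shown with 9 bases on either side, in the orientation of the motif and with the motif in capitals. They are 4 of those with high accessibility at day 2, and the site near Prps1l1, whose region is among those with the largest loss after day 2.
Tyro3 region, chr2:119809071-119809099, plus strand: gtggccgctTTGTATGCAAAtcgggaagc
Pja2 region, chr17:64441755-64441783, plus strand: gcgtttactTTGTATGAAAAttctccagc
Dgki region, chr6:37219181-37219209, plus strand: aacattcatTTGTATGCAAAactctctgg
Chst5 region, chr8:111905753-111905781, minus strand: ctgtatcctTTGTATGAAAAtaagtctcc
Prps1l1 region, chr12:34946223-34946251, plus strand: agtgatactTTGTATGCAAAggattacct

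The canonical composite, with any 1 base between TTGT and ATGNAAA, was found at 1 of the 3725 regions, or 0.0268% (exact 95% interval 0.000680% to 0.149%), against 0.500% of all regions (0.435% to 0.572%). Early regions with SOX17 that the PTF already bound at d0 held the canonical form at 34 of 2901 regions, or 1.17% (0.813% to 1.63%), and the compressed form at 8, or 0.276%. Among early SOX17 regions without PTF binding, the compressed form was at 1 of 2001 and the canonical form at 3. The early regions with ectopic PTF but no SOX17, which numbered 589, held the compressed form once and the canonical form 3 times. Over whole regions instead of 300 bases, the compressed form was held by 0.859% of the 3725 regions and 0.403% of all regions, and the canonical form by 0.268% and 0.741%. In this wider search the early SOX17 regions with PTF at d0 held the compressed form at 27 of 2901 regions, or 0.931%, so that the order of the 300-base windows was not kept. The intervals cover counting error only, and neighbouring regions are not independent.

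The gap was then varied: the shorter pair TTGT and ATGC was searched at each gap from 0 to 8 bases, a search that was added after the data were seen. With a gap of 0 it was held by 88 of the 3725 regions (2.36%, exact 95% interval 1.90% to 2.90%), against 1.03% of all regions. The SOX17 regions bound by PTF at d0 were at 1.65% (1.22% to 2.19%). Early regions with ectopic PTF and no SOX17 were at 1.36% (0.588% to 2.66%). Both intervals overlap that of the 3725 regions. Early regions with SOX17 and no PTF were at 0.400% (0.173% to 0.786%). With a gap of 1 base the order of the 3725 regions, all regions and those bound by PTF at d0 turned: 0.698%, 1.81% and 3.21%. From a gap of 2 to one of 8 bases the share lay between 0.859% and 1.88% in the 3725 regions and between 0.863% and 1.38% in all regions. The 88 regions had a median accessibility change of 1.93 on the log2 scale from d0 to day 2, and the other 3637 one of 1.93 as well.

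**Figure D1:**
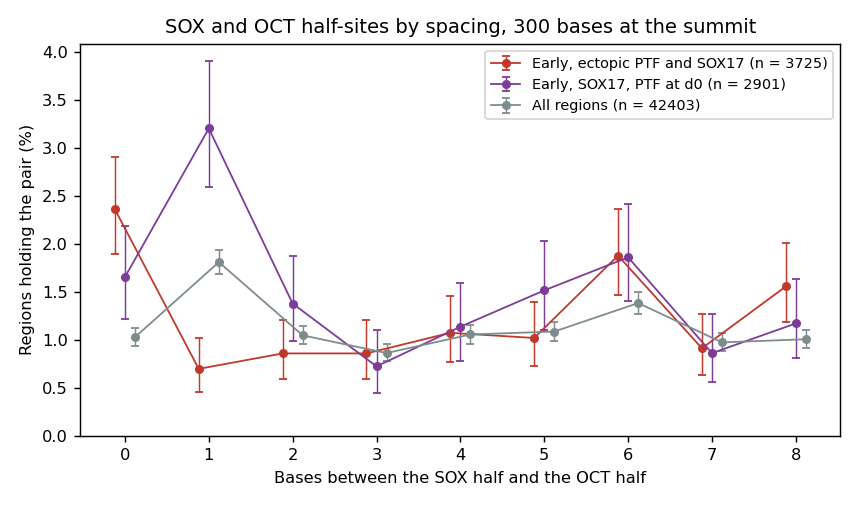
The percentage of regions that hold TTGT and ATGC in the 300 bases around the GATA6 summit (y axis) is plotted against the number of bases between them (x axis) for the 3725 regions, for the 2901 early SOX17 regions with PTF at d0 and for all 42403 regions, with exact 95% binomial intervals. The 3725 regions peak at a gap of 0 (2.36%) and the regions with PTF at d0 at a gap of 1 (3.21%).

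Single motifs separated the regions less. A GATA6 match of the authors' motif scan was present in 96.7% of the 3725 regions and 89.7% of all regions, and the short GATA core AGATAA, within 300 bases, in 69.6% and 58.1%. SOX17 matches were present in 84.0% and 69.2%. The regions were also wider, with a median of 834 bp against 525 bp, and per kb the 2 groups held about the same number of matches, 2.25 and 2.21 for SOX17 and 4.02 and 4.04 for GATA6. The best SOX17 match fell in the authors' high score class at 28.8% of the 3725 regions, against 19.6% of all, and the best OCT4:SOX2 match at 3.22%, against 6.68% of all regions and 14.5% of the SOX17 regions bound by PTF at d0. The median distance of the best match from the summit was 56 bp for GATA6, 149 bp for SOX17, 213 bp for OCT4:SOX2 and 218 bp for ESRRB.

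By position the 3725 regions resembled the rest of the table. In the GENCODE M21 annotation 53.3% of the summits lay in introns and 43.9% between genes, against 53.5% and 42.6% of all regions, and 177 (4.75%) were within 1 kb of a transcription start, against 6.57%. The median distance to the nearest start of a protein-coding transcript was 25954 bp. A further member lay within 10 kb of 561 of them (15.1%). The authors' ES cell classes placed 77.8% as closed at d0 (61.3% of all regions), 20.4% as moderate and 1.80% as accessible. Closed regions made up 77.2% of the early regions with ectopic PTF and no SOX17. They were 72.0% of those with SOX17 and no PTF and 33.7% of those with SOX17 and PTF at d0. By histone marks of ES cells, 1224 (32.9%) were in the class that the authors name naive, against 18% of all regions, 837 (22.5%) carried marks of facultative heterochromatin, 655 were classed as primed, 361 as poised and 221 as active enhancers, 252 as constitutive heterochromatin and 175 as promoters. The naive share in the same like sets, in the same order, was 34.6%, 24.3% and 14.2%.

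Accessibility is given in RPM, the reads of fragments under 100 bp in a region per M reads of the library, as an average that the authors made over the libraries of each group. Changes are differences of log2(RPM + 0.03), a scale that understates the change of regions with few reads. The 3725 regions started low, at a median of 0.111 RPM at d0 (25th to 75th percentile 0.0664 to 0.199 RPM). At 8 h the median had not moved (0.110 RPM). It rose to 0.154 RPM by 16 h and 0.215 RPM by day 1, reached 0.561 RPM on day 2 and was down to 0.428 RPM on day 4. XEN cells, at 0.250 RPM, were between d0 and day 4. In a pool of cells, a change in few cells with much signal and one in many cells with little cannot be told apart.

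The median log2 difference from d0 was 0.32 by 16 h and 0.71 by day 1. Day 2 gave 1.93 and day 4 gave 1.54, while XEN cells differed by 0.83. The median over all 42403 regions also rose, by 0.31 (day 1), 0.69 (day 2), 0.52 (day 4) and 0.40 (XEN cells). Relative to these shifts of the median, the 3725 regions were at 0.40, 1.24, 1.02 and 0.43. Not every region rose: 8503 of the 42403 were lower at day 2 than at d0, and 14176 were lower in XEN cells. At day 1, 22.3% of them were more than 2-fold above d0, against 4.55% of all regions. At day 2 the share was 89.1%, against 36.8%, and at day 4 it was 74.5%, against 31%. In XEN cells 43.1% were more than 2-fold higher than in d0 cells, against 27.7% of all regions, and 27 regions (0.725%) were more than 2-fold lower, against 8.83%. These counts compare averaged columns and have no replicate check. With each column centred on its median the members past 2-fold in either direction were 129 at day 1 and 2030 at day 2. Quantile normalization gave 84 and 1632, and a pseudocount of 0.15 RPM gave 102 at day 1. For XEN cells centring gave 894 higher and 150 lower, and quantile normalization 1208 and 137.

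**Figure D2:**
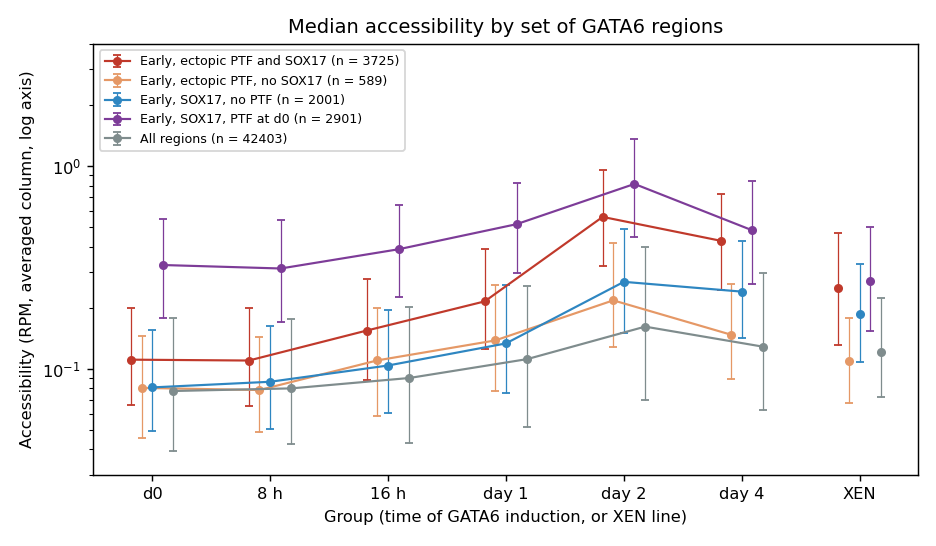
Median accessibility in RPM on a log axis (points) with the 25th to 75th percentile of regions (bars) for the 3725 regions, the 3 early sets that differ from them in SOX17 or PTF binding, and all regions, in the averaged column of each group. The 3725 regions climb from 0.111 RPM before induction to 0.561 RPM on day 2 and sit at 0.428 RPM on day 4, with XEN cells plotted apart at 0.250 RPM.

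Timing was narrow. Among the KH2 groups, day 2 held the highest value of 3026 regions (81.2%) and day 4 that of 667 (17.9%), and 23 peaked at day 1, 6 at 16 h and 3 at 8 h. Over all regions the shares were 45.0% and 28.0%. A maximum at day 2 was as frequent in the early regions with ectopic PTF and no SOX17 (80.5%). It was also as frequent in those with SOX17 and PTF at d0 (83.6%), and less so in those with SOX17 and no PTF (60.5%). Of the gain in RPM between d0 and day 2, a median of 8.89% was present at 16 h and 23.3% at day 1. Over all regions these medians were 9.05% and 29.8%, so the 16 h value was not particular to the members. In the early sets that differ in SOX17 or PTF binding, the medians were higher. They ranged from 11.1% to 17.8% at 16 h and from 26.9% to 38.1% at day 1. Of the 3725 regions, 8 were lower at day 2 than at d0.

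Early regions that differ from the 3725 in SOX17 or in PTF binding were set beside them. The 589 early regions with ectopic PTF and no SOX17 had a median of 0.0805 RPM at d0 and 0.218 RPM at day 2, a median change of 1.13. The 2001 early regions with SOX17 and no PTF went from 0.0809 to 0.268 RPM, a change of 1.27. The 2901 early regions with SOX17 and PTF at d0 began at 0.325 RPM and reached 0.816 RPM, a change of 1.19. From day 2 to day 4 the median change was -0.34 in the 3725 regions and -0.24 over all regions. It was -0.52 in the set without SOX17, -0.15 in the set without PTF and -0.67 in the set with PTF at d0. In XEN cells 11.2%, 40.2% and 10.4% of these 3 sets were more than 2-fold above d0. These sets are described side by side without a test of the difference.

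The averages could be resolved into the whole reads of 16 libraries at 24753 regions, of which 2148 were among the 3725. They lie on chromosomes 1, 2 and 4 to 13, and on the others no reads were recovered. The 3 libraries at 8 h, 16 h, day 1 and day 2 and the 2 at day 4 held 181 M to 261 M reads, and the 2 recovered for XEN cells 288 M and 43.3 M. No library of d0 could be recovered, so 8 h, whose averaged column was near that of d0 (median difference of the members -0.0042), served as the baseline. Libraries bear letters in arbitrary order. The median of the 2148 regions was 0.131, 0.136 and 0.0760 RPM in the 3 libraries of 8 h, and 0.209, 0.149 and 0.115 RPM at 16 h. At day 1 it was 0.168, 0.280 and 0.210 RPM, and at day 2 it was 0.439, 0.672 and 0.600 RPM. The day 4 libraries were at 0.437 and 0.444 RPM, and those of XEN cells at 0.246 and 0.254 RPM. Day 2 and day 4 libraries were all above those of 8 h, 16 h and day 1, whereas day 1 overlapped with 16 h.

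On the log2 scale the library medians averaged -2.82 ± 0.36 (SD, n = 3) for 8 h and -2.03 ± 0.32 (n = 3) for day 1. They averaged -0.76 ± 0.30 (n = 3) for day 2, -1.09 ± 0.01 (n = 2) for day 4 and -1.84 ± 0.03 (n = 2) for XEN cells. Much of this spread was shared with all regions of a library. The median of the 2148 regions minus the median of all recovered regions was 0.33 ± 0.05 (8 h), 0.61 ± 0.04 (16 h) and 0.78 ± 0.10 (day 1). It then stood at 1.61 ± 0.13 (day 2) and 1.54 ± 0.0047 (day 4), and at 0.84 ± 0.13 for XEN cells. Counted as signal, the 2148 regions took 8.98% to 10.03% of the RPM of all recovered regions in the 8 h libraries and 17.6% to 19.0% in the day 2 libraries.

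**Figure D3:**
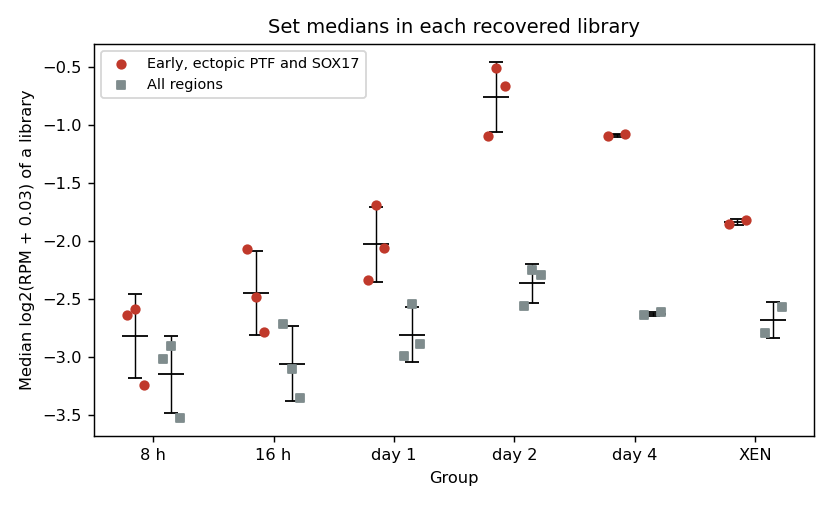
Median log2(RPM + 0.03) of each recovered library over the 2148 regions (circles) and over all 24753 recovered regions (squares), with the mean and SD of each group in black. The 2148 regions are at -2.82 at 8 h and -0.76 at day 2, while the median over all regions moves less.

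Between groups of libraries, limma was run across the 24753 regions, and a region was called at a Benjamini-Hochberg adjusted p under 0.05 with an absolute log2 difference above 1. At 16 h, 1 of the 2148 regions was called higher than at 8 h and 0 lower, against 0.00404% of all regions in each direction. An unadjusted limma p under 0.05 was found at 386 of the 2148 regions and at 1597 of all 24753. The count of members called at 16 h was 46 with each library centred on its median, 53 with quantile normalization and 25 without library c of 16 h. At day 1, 557 (25.9%) were called higher, against 5.98% of all regions, and 0 lower, against 0.0162%. The day 1 count rested on single libraries: it was 167 without library c of 8 h and 150 without library b of day 1. At day 2, 1908 (88.8%) were called higher, against 36.9%, and 0 lower, against 1.15%. At day 4, 1626 (75.7%) were called higher than at 8 h, against 30.5%, and 0 lower, against 6.59%. With each library centred on its median, 177 were called at day 1 and 1231 at day 2, and with quantile normalization 152 and 1004.

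The step from day 1 to day 2 was called for 1343 of the 2148 regions (62.5%), against 19.9% of all regions, and 0 were called lower, against 0.671%. The count was 687 with centring and 412 with quantile normalization. All 557 regions called at day 1 were also called at day 2. Of the 1908 called at day 2, 1598 were also called at day 4 and 310 were not, while 28 were called at day 4 alone. From day 2 to day 4, 3 regions were called higher (2.1% of all regions) and 113, or 5.26%, lower (10.1% of all). These 116 calls rested on single libraries: they were 38 without library b and 52 without library c of day 2, and 19 and 21 without library a and b of day 4. In XEN cells 667 regions (31.1%) were called lower than at day 4, against 13.6% of all regions, and 12 higher, against 5.52%. These 679 calls were 372 and 313 without library a or b of day 4, and 370 without the shallow library b of XEN cells. A share near that of the members was called lower among early SOX17 regions with PTF at d0 (32.4%). It was 14.7% in early regions with ectopic PTF and no SOX17 and 16.0% in those with SOX17 and no PTF.

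**Figure D4:**
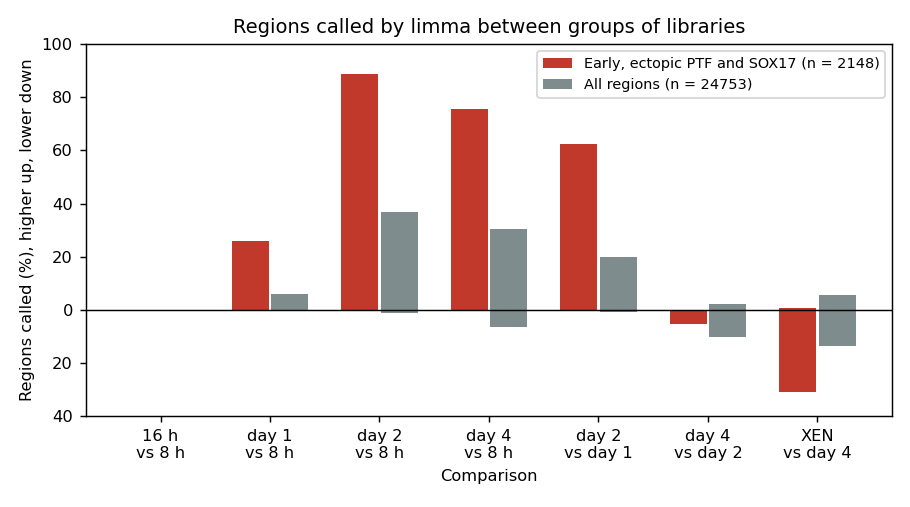
Percentage of regions called higher (bars up) or lower (bars down) by limma in 7 comparisons, for the 2148 regions with recovered reads and for all 24753. The day 2 bar against 8 h reaches 88.8% for the 2148 regions and 36.9% for all, and the XEN bar against day 4 reaches 31.1% down.

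The members also differed by a category that the criteria had not used, the response of GATA6 binding to Oct4 knockdown at day 2. The authors classed GATA6 binding as decreased at 401 of the 3725 regions (10.8%, against 6.25% of all regions), increased at 355 (9.53%, against 8.57%) and unchanged at 2969. The decreased share was higher in early regions with ectopic PTF and no SOX17 (23.6%) and in those with SOX17 and PTF at d0 (18.5%). It was lower in those with SOX17 and no PTF (2.15%). Members of the decreased class went from a median of 0.0862 RPM (d0) to 0.487 RPM (day 2) and 0.271 RPM (day 4), with 0.125 RPM in XEN cells. Regions of the increased class were at 0.128, 0.549, 0.549 and 0.429 RPM. The decreased class thus had the larger median change at day 2 (2.08, against 1.81) and the smaller one at day 4 (1.26, against 1.88) and in XEN cells (0.38, against 1.496). Day 4 was below day 2 at 390 of the 401 decreased regions (97.3%) and 167 of the 355 increased regions (47.0%). In the whole table it was below day 2 at 96.6% of the decreased class, 19.6% of the increased class and 65.8% of all regions. The share of the decreased members was thus near that of their class.

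In the recovered libraries the median of the increased class minus that of the decreased class was 0.52 ± 0.07 (SD, n = 3) at 8 h, 0.15 ± 0.05 (n = 3) at day 1 and 0.09 ± 0.17 (n = 3) at day 2. It was 0.97 ± 0.07 (n = 2) at day 4 and 1.49 ± 0.23 (n = 2) in XEN cells. The libraries of day 4 (0.92 and 1.02) and XEN cells (1.33 and 1.65) were all above those of the other groups (-0.05 to 0.60). Between day 2 and day 4, 62 of 231 recovered regions of the decreased class were called lower and 0 of 198 of the increased class, against 10.1% of all regions. These calls belong to the comparison whose 116 calls fell to 19 or 21 without 1 of the day 4 libraries. The classes also differed at the start and in width (738 and 953 bp). Among the members closed at d0, a comparison added after the data were seen, the change at day 4 was 1.28 in the decreased and 2.08 in the increased class. Over all 42403 regions the decreased class was at 0.33 and the increased class at 1.52 at day 4, so the difference was not particular to the members. The pair TTGT and ATGC with a gap of 0 was held by 19 of the decreased members (4.74%) and 2 of the increased ones (0.563%). Unchanged members held it at 2.26%. Over all regions the decreased class was at 1.96% and the increased class at 0.715%.

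**Figure D5:**
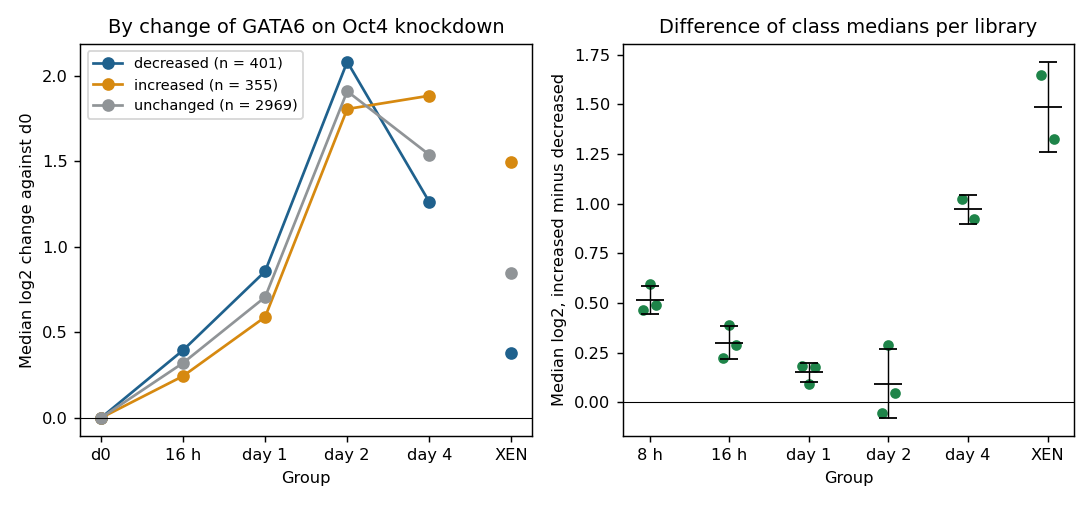
Left, the median log2 change against d0 of members whose GATA6 binding decreased (n = 401), increased (n = 355) or did not change (n = 2969) on Oct4 knockdown. Right, the difference between the class medians (increased minus decreased) in each recovered library, with the mean and SD per group in black, which is 0.09 for day 2, 0.97 for day 4 and 1.49 for XEN cells.

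The d0 classes differed in the height and less in the course of the change. Members closed at d0 (2899) went from 0.0920 to 0.492 RPM at day 2, moderate ones (759) from 0.269 to 0.851 RPM and accessible ones (67) from 0.742 to 1.67 RPM, with median changes of 2.08, 1.47 and 1.02. In XEN cells the changes were 1.01, 0.29 and -0.13. The classes were drawn by the authors from d0, which is also the baseline here, so a smaller change from a higher start is built into this comparison. By histone class, the change at day 2 was lowest at promoters (1.10) and highest in facultative heterochromatin (2.15) and the naive class (2.09). By SOX17 motif, members with a high scoring match changed by 2.05 at day 2 and those without a match by 1.75.

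Known endoderm transcription factor genes were near several members. A gene was assigned when its start was the nearest within 100 kb, which is no proof of a target, and 3013 members fell to 2305 genes. Of 12 listed endoderm factors 8 had a member, 25 members in all out of 146 regions (17.1%, against 8.78% over all regions), and all 25 were more than 2-fold higher at day 2 than at d0, as were 89.1% of all members and 36.8% of all regions. Their median change was 2.43 (day 2), 2.10 (day 4) and 1.29 (XEN cells), and limma called 9 of the 10 with recovered reads higher at day 2 than at 8 h, near the 88.8% of all members. Among them Foxa2, a forkhead pioneer factor of endoderm, had 6 members, Tcf7l2, a Wnt effector, 4, Gata6 and Foxq1 3 each, Gata4 and Sox17 2 each and Klf6 1. There were 0 near Sox7 and Eomes, which had 4 and 6 regions of other kinds.

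The member with the highest day 2 value near Sox17 (chr1:4536608-4538990, intergenic, 40.3 kb from the start, closed at d0) was at 0.243 RPM at d0. Its libraries held 0.211, 0.202 and 0.104 RPM at 8 h and 0.536, 0.455 and 0.397 RPM at 16 h. They held 0.543, 0.875 and 0.762 RPM at day 1, 2.62, 4.34 and 3.02 RPM at day 2. Day 4 libraries held 2.02 and 2.66 RPM. XEN cells were at 1.81 and 2.26 RPM. All libraries from 16 h on were above those of 8 h. The difference from 8 h was 1.32 ± 0.32 (SE, limma) at 16 h (adjusted p = 0.0861) and 4.06 ± 0.32 at day 2 (adjusted p = 2.14e-32), while XEN cells did not pass the test against day 4 (-0.19 ± 0.40, adjusted p = 0.775).

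At Gata6 itself, a member (chr18:11051211-11053515, intron, 0.539 kb from the start, moderate at d0) was already at 0.860 RPM before induction, at 1.46 RPM by day 1 and at 3.42 and 3.49 RPM on days 2 and 4, with 1.85 RPM in XEN cells. It has no recovered libraries. The averaged columns of the Foxa2 region (chr2:147968328-147969112, intron of 9030622O22Rik, 77.2 kb from Foxa2) were 0.257 RPM (d0), 1.99 RPM (day 2) and 1.18 RPM (XEN cells). Those of the Tcf7l2 region (chr19:55700055-55701130) were 0.296, 1.68 and 0.820 RPM.

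Products of the PrE and visceral endoderm formed further lists. Of 12 basement membrane genes, which encode laminins, type IV collagens, nidogens and proteins that modify or chaperone collagen, 10 had 17 members among 102 regions (16.7%). Of the 17, 13 were past 2-fold at day 2, with a median change of 1.70, and 6 of 11 recovered ones were called, both shares below those of all members (89.1% and 88.8%). Lama1, which encodes a laminin chain of the PrE basement membrane, had 5, and the highest of these (chr17:67684408-67686583, 11.6 kb from the start) went from 0.240 RPM (d0) to 1.58 RPM (day 2) and 1.53 RPM (day 4). Of 7 endocytosis genes 5 had 12 members among 41 regions (29.3%), of which 8 were past 2-fold (median change 2.05), a lower share than the 89.1% of all members, and the 1 with recovered reads was not called. They included Dab2, an adaptor of clathrin coats, with 3, Cubn, a receptor of the visceral endoderm, with 3, and Lrp2, the megalin receptor, with 4. The Dab2 member (chr15:6374983-6375925, intron) was in the averages at 0.168 RPM (d0) and 1.96 RPM (day 2) but at 0.333 RPM in XEN cells. The Cubn member (chr2:13495414-13498310) was at 0.229 RPM at d0 and 1.74 RPM at day 2.

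Of 13 genes for secreted proteins of visceral endoderm 3 had 4 members among 28 regions (14.3%). All 4 were past 2-fold, with a median change of 2.96, and both recovered ones were called. Among all members these shares were 89.1% and 88.8%, and 4 members are too few to tell apart from them. The Ctsl member (chr13:64374901-64376085), near the gene of the protease cathepsin L, was 3.43 ± 0.32 higher at day 2 than at 8 h (limma, adjusted p = 1.04e-23). Of 22 signalling genes 7 had 11 members among 110 regions (10%, near the 8.78% over all regions). All 11 were past 2-fold, against 89.1% of all members, with a median change of 1.78, and 10 of 10 recovered ones were called. Pdgfra, the receptor that marks PrE, had 3, as did Dusp4, a phosphatase of MAP kinases. The Dusp4 member (chr8:34780620-34782412) was at 0.347, 0.508 and 0.204 RPM at 8 h, 1.22, 1.88 and 1.68 RPM at day 2 and 0.809 and 0.743 RPM at day 4. It was 2.14 ± 0.32 higher at day 2 than at 8 h (adjusted p = 4.14e-10), a call lost with quantile normalization.

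Pluripotency genes also had members. Of 13 listed genes 7 had 12 members among 128 regions (9.38%), close to the 8.78% over all regions. Of these, 10 were past 2-fold higher at day 2 and 5 of 6 recovered ones were called, near the shares of all members (89.1% and 88.8%), with a median change of 1.92 (day 2), 1.09 (day 4) and 0.22 (XEN cells). Klf4, a Krüppel-like factor of naive ES cells, had 4 and Sox2 2, with changes between 1.87 and 2.50, while Pou5f1, Nanog, Esrrb, Klf2, Tfcp2l1 and Nr5a2 had 0 members among 5, 5, 13, 5, 8 and 6 regions. The Klf4 member (chr4:55515487-55516878, intergenic, 16.4 kb from the start) was at 0.281, 0.202 and 0.180 RPM at 8 h, 1.30, 1.86 and 1.49 RPM at day 2, and 1.498 and 1.67 RPM at day 4. XEN cells held 1.33 and 1.09 RPM. Its day 2 difference from 8 h was 2.66 ± 0.32 (adjusted p = 6.46e-15), and all libraries of later groups were above those of 8 h.

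Outside the lists, Etl4 and Zfp608 had the most members, with 7 each among 38 and 12 regions. Amot, Chn2, Foxa2, Rreb1 and Smad7 followed with 6. All 7 members near Zfp608, a zinc finger gene, changed by 1.47 to 3.06 at day 2, and those near Smad7, an inhibitor of TGF-beta signalling, by 1.33 to 2.41. Of the 2305 genes 1820 had a single member.

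The 8 members with the largest change from d0 to day 2, between 3.64 and 3.89, were near Clnk, Parp11, Btbd3, Pigr, Chd6, Snrk, Srgn and Camta1, and all 8 were closed at d0. The Clnk region (chr5:39102559-39104139, 227 kb from the start) went from 0.112 RPM before induction to 0.382 RPM by day 1 and 2.08 RPM by day 2, with 1.54 RPM on day 4 and 1.34 RPM in XEN cells. The Camta1 region (chr4:151319972-151320477, intron) went from 0.0713 to 1.23 RPM by day 2 and stood at 0.157 RPM in XEN cells, 2.32 ± 0.40 below day 4 on the log2 scale (limma, adjusted p = 7.19e-07).

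At the other end, the 4 members with the lowest change at day 2, near Ncoa3, Zfp280b, Serbp1 and Lifr, lay between -0.36 and -0.19. The Zfp280b region had 0.373 RPM (d0), 0.313 RPM (day 2) and 0.762 RPM (XEN cells) and passed none of the tests against 8 h. The 3 members with the highest d0 value, near Fgf18, Dcaf11 and Fbxo11, all of the promoter class, started at 1.60 to 2.26 RPM. At day 2 they were at 3.58, 3.10 and 2.62 RPM. Their change at day 2 turned to -0.17 at Fgf18 and -0.13 at Fbxo11 once each column was centred on its median.

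After day 2 the members with the largest loss were near Lpcat1, Tnp1, Epha4 and Prps1l1, and 3 of the 4 were in the decreased class of the Oct4 knockdown. The Lpcat1 region (chr13:73487995-73488687, intron) was at 0.586, 0.743 and 0.765 RPM at day 2 and 0.171 and 0.144 RPM at day 4, a difference of -1.95 ± 0.36 (limma, adjusted p = 2.49e-05). Its 8 h libraries held 0.127, 0.216 and 0.0997 RPM, so that day 4 lay in the range of 8 h. The Prps1l1 region (chr12:34946089-34946406), whose compressed composite lies 3 bp from the GATA6 summit, had 7, 8 and 4 reads at 8 h. It had 62, 112 and 93 reads at day 2 (0.271, 0.534 and 0.450 RPM) and 14 and 23 at day 4 (0.0703 and 0.123 RPM). The loss was -1.81 ± 0.36 (adjusted p = 0.000101), and the call was lost without library a of day 4. With each count 1 read that was added to every region before deposition is included.

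Among the members with the largest gain after day 2, near Olfr346, Otud3, Car8 and Lifr, the Otud3 region (chr4:138933856-138934535) was at 0.197, 0.138 and 0.242 RPM at day 2 and 0.457 and 0.502 RPM at day 4. The difference of 1.22 ± 0.36 passed the test (adjusted p = 0.0116) but not without library b of day 2 or either library of day 4, nor with either other pseudocount. In XEN cells it was at 0.0902 and 0.0462 RPM, the latter from 2 reads.

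The 3 members most above day 4 in XEN cells were near Stard13, Slc5a4b and Ackr3, all of the increased class of the Oct4 knockdown. The Ackr3 region (chr1:90283533-90285479) was at 0.352 and 0.411 RPM at day 4 and 0.957 and 1.36 RPM in XEN cells, 1.51 ± 0.40 higher (limma, adjusted p = 0.00212), and the call was lost without library a of day 4 or the shallow XEN library. The 3 most below were near Olfr126, A3galt2 and Dppa1. The Dppa1 region (chr11:46641736-46642254, intron of Gm4926) was at 0.0281, 0.0329 and 0.0237 RPM at 8 h, 0.612, 0.934 and 0.789 RPM at day 2 and 0.412 and 0.486 RPM at day 4, while XEN cells held 13 reads and 1 read. The difference from day 4 was -2.92 ± 0.40 (adjusted p = 1.94e-10). Near A3galt2 (chr4:128753299-128753957, 1.88 kb from the start) the averages were 0.259 RPM (d0), 1.78 RPM (day 2) and 0.0890 RPM (XEN cells). The groups being compared here differ in strain, and whether strain, medium or culture history moved these values was not tested.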

How the data were processed

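Per the authors, adapters were cut with cutadapt, mapping used Bowtie2 and mm10, SAMtools took out duplicates, read ends were moved for the Tn5 offset, and fragments under 100 bp were counted in each GATA6 region. The deposited ATAC values are in RPM (reads per M reads of a library), 1 column per group, averaged over libraries and not divided by region width. The authors' motif matches (FIMO score, JASPAR matrices) and their categories were used as deposited. Every recovered count includes 1 read that had been added to each region. The 52 columns with per-sample values of other assays were not used.

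Members were the rows with GATA6 cluster early, PTF class ectopic and SOX17 class bound. The members and gene lists were chosen with earlier results of these data known. Where a column kept more than 12 significant digits, whole reads of single libraries were recovered as the whole numbers whose scaled sum gives the average within 1e-07 reads, and 100% of values at 24753 regions were solved. The search was tested on simulated data, where 100% of reads were right for 1, 2 and 3 libraries and 0% of values shifted at random were solved. The letters of libraries are arbitrary, and only 2 of 3 XEN samples were found.

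limma 3.58.1 (R 4.3.3) was fitted to log2(RPM + 0.03) of the 16 libraries in 1 model with Benjamini-Hochberg adjustment over all 24753 regions. The spread was pooled completely (infinite prior degrees of freedom), so every region has the same SD of 0.396 on the log2 scale, while residual SDs of single regions spread from 0.280 to 0.493 (10th to 90th percentile). Adjusted p-values rest on that pooled SD and on libraries whose deviations are shared across regions. The study states that its libraries came from independent cultures. The scan of gaps and the knockdown classes among regions closed at d0 were chosen after seeing the data. Sequences came from GRCm38.p6 (RefSeq), read with pysam 0.24.0, genes from GENCODE M21, and exact binomial intervals from scipy 1.17.1. Named regions were the members with the 8 largest and 4 lowest changes at day 2, the 4 largest losses and gains from day 2 to day 4, the 3 highest d0 values, the 3 highest and 3 lowest XEN differences from day 4, and the highest day 2 member of 12 listed genes. Some of the regions this rule picks are not reported here. Alternatives were other pseudocounts, a filter on low values, median centring, quantile normalization, a trended prior, 2-group fits and leaving out each library.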

Additional observations from a re-analysis of the deposited data

How the results depend on the processing

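Scaling, the pseudocount and single libraries each moved counts. With each column centred on its median, members past 2-fold against d0 in either direction were 0 (16 h), 129 (day 1), 2030 (day 2), 1834 (day 4) and 1044 (XEN cells). Of the 1044, 894 were higher and 150 lower. Quantile normalization gave 0, 84, 1632 and 1686 for the KH2 groups in this order. A pseudocount of 0.006 RPM gave 2 at 8 h, 4 at 16 h and 1291 at day 1, and one of 0.15 RPM gave 0 at 16 h, 102 at day 1 and 850 in XEN cells. With limma, centring gave 46 calls for 16 h, 177 for day 1, 1231 for day 2, 687 from day 1 to day 2 and 57 from day 2 to day 4. Quantile normalization gave 53, 152, 1004, 412 and 36 for these comparisons and 1050 for day 4 against 8 h. The pseudocount of 0.15 RPM gave 0 at 16 h, 87 at day 1, 856 from day 1 to day 2, 34 from day 2 to day 4 and 376 for XEN cells, and that of 0.006 RPM gave 3 at 16 h and 43 from day 2 to day 4. With only the groups compared in the fit, 0 were called at 16 h. Leaving out 1 library gave 0 to 25 calls for 16 h, 150 to 800 for day 1, 1770 to 1973 for day 2, 1454 to 1750 for day 4, 1116 to 1554 from day 1 to day 2, 19 to 144 from day 2 to day 4 and 313 to 485 for XEN cells. The mean rise of the library medians from 8 h was 0.45 with centring at day 1, 1.28 and 1.44 (centring, pseudocount 0.15 RPM) at day 2 and 1.21 and 1.17 at day 4. In whole regions 0.268%, 0.859% and 82.3% held the canonical composite, the compressed one and the GATA core. The change at day 2 reversed with centring at Car8 (-0.10), Fgf18 (-0.17), Fbxo11 (-0.13) and Slc5a4b (-0.58), and with quantile normalization at Fgf18 (-0.52), Dcaf11 (-0.22), Fbxo11 (-0.46), Slc5a4b (-0.25) and Ackr3 (-0.16). Of the recomputed limma calls at named regions, 565 kept their side and 73 were lost. The causes of these shifts were not tested.

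No paired analysis was possible because the averaged columns carry no replicate numbers and the recovered libraries cannot be tied to a numbered sample. The limits are the unresolved d0 libraries, recovered reads on part of the genome, 2 libraries at day 4 and in XEN cells, one of them shallow, and the few reads behind low values.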
